A study of Mus musculus with 8 samples.

Results

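Tight junctions seal the space between neighbouring epithelial cells near their apical side. Claudins and occludin span the membrane and form the strands of the seal, junctional adhesion molecules sit beside them, and the zonula occludens (ZO) proteins inside the cell tie the strands to the actin cytoskeleton. Which claudins a cell makes sets how tight the seal is and which ions pass it, and in carcinoma cells the loss of tight junction proteins often goes with a mesenchymal form.

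RNA-seq counts were examined for 9 genes of this complex: the claudins Cldn1, Cldn3, Cldn4, Cldn6 and Cldn7, occludin (Ocln), junctional adhesion molecule A (F11r), and the scaffolds ZO-1 (Tjp1) and ZO-3 (Tjp3). They were chosen by symbol, with earlier results of these data known. All 9 were found among the 27179 genes of the count matrix and passed the filter on low counts. The 8 libraries came from 4 mouse mammary tumour lines grown in culture, 4T1.2, 4T1, 66cl4 and 67NR, each with 2 biological replicates and no treatment. The lines are isogenic and derived from BALB/c mice, 4T1.2 is a clone of 4T1 that spreads to bone, and 66cl4 and 67NR are of lower metastatic potential. The sample labels spell 66cl4 as 66c14. Each line stands for itself alone: p-values measure the spread between cultures of these lines, not between lines of a kind. Totals ran from 37159840 to 66269681 counts per library.

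The main comparison took 4T1 and 4T1.2 together (4T1/4T1.2) and set their mean log2 level against that of 66cl4 and 67NR together, to ask how the lines of higher metastatic potential differed from the others. In it, 6 of the 9 genes were higher in 4T1/4T1.2 cells (Cldn3, Cldn4, Cldn7, Ocln, F11r and Tjp3), 2 were lower (Cldn1 and Cldn6), and Tjp1 was not called. A gene was called at an adjusted p under 0.05 in the quasi-likelihood test of edgeR, where p-values were adjusted by the Benjamini-Hochberg method over the 13913 genes tested. Of all genes tested, 38.1% were called higher and 38.6% lower, so that a call by itself was common between these lines. For the 8 genes called, the 4 libraries of 4T1 and 4T1.2 did not overlap with the other 4, which held, together with a call, for 27.7% of all genes in the higher and 27.6% in the lower direction. The median of the fitted log2 differences over the 9 genes was 4.08, the value of Cldn7, beside -0.013 over all genes tested. It is a description only. Cldn1, Cldn3, Cldn4, Cldn7 and Tjp3 had at most 2 counts in each library of one group, and passed the filter on low counts only through the other. For the genes with counts in every library, the values were -3.43 for Cldn6, 4.57 for Ocln, 1.52 for F11r and -0.19 for Tjp1. In cultures of a line, a smaller share of cells with a transcript and less of it in each cell cannot be told apart.

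**Figure D1:**
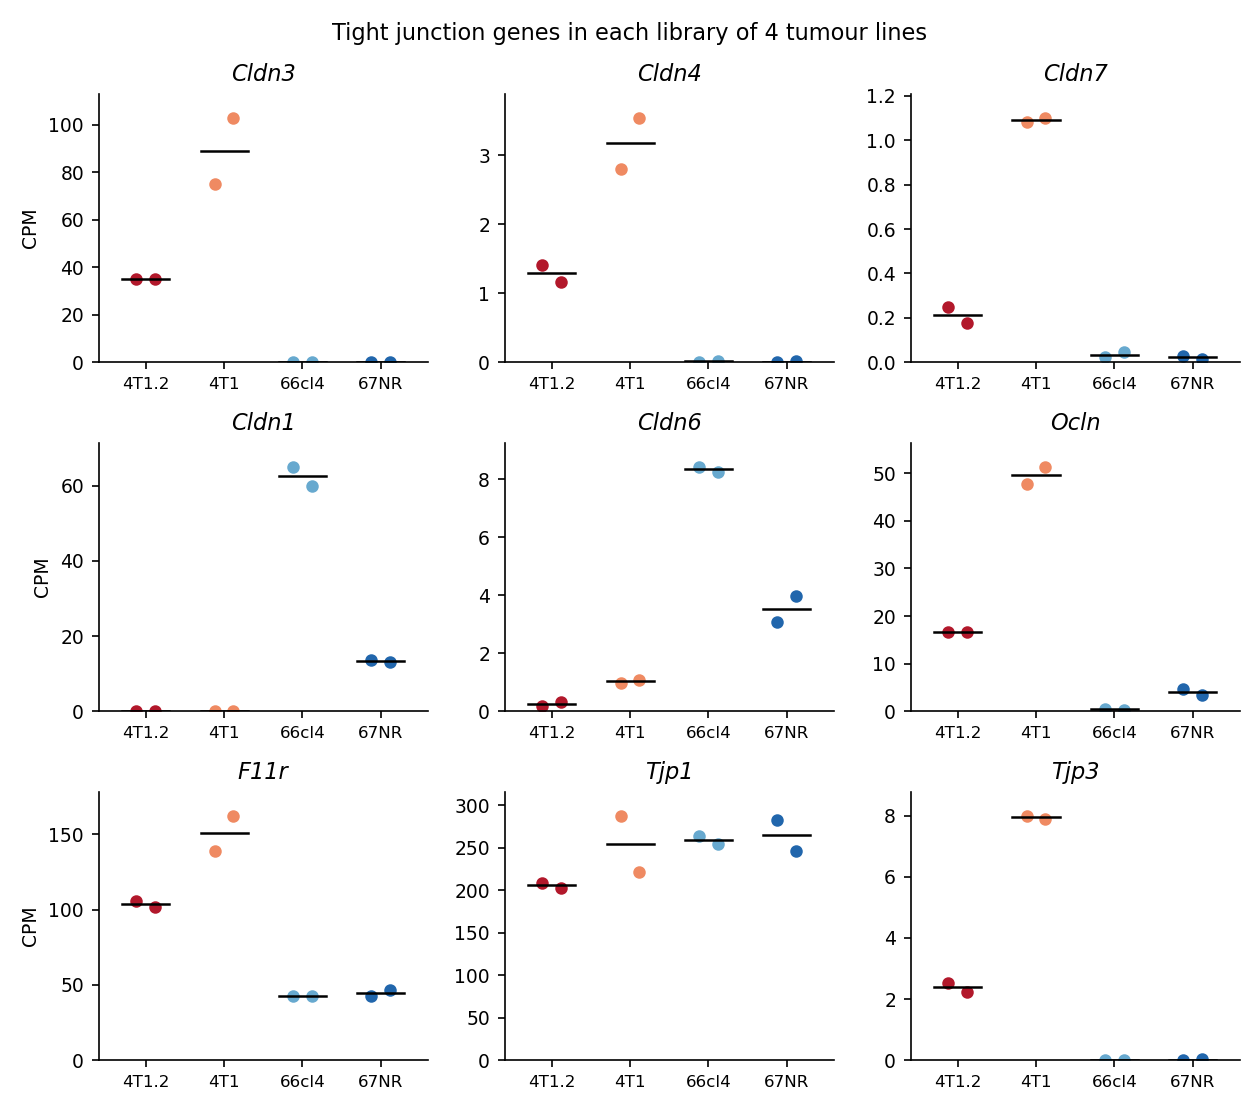
CPM (counts relative to the TMM effective library size) of the 9 genes in each library, 1 panel per gene with its own axis from 0. Points are libraries and black bars are the means of 2 replicates. Cldn3, Cldn4, Cldn7, Ocln, F11r and Tjp3 were highest in 4T1, Cldn1 and Cldn6 were highest in 66cl4, and Tjp1 lay between 203 and 287 CPM in every library.

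Cldn3 and Cldn4 encode claudins of many simple epithelia and are the receptors of Clostridium perfringens enterotoxin. Cldn3 (GeneID 12739, chromosome 5, 134986214 to 134987476, GRCm38) had 1998 and 1984 counts in 4T1.2, 4587 and 4764 in 4T1, 2 and 0 in 67NR, and 1 and 0 in 66cl4. This gene therefore had at least 1984 counts in each library of one pair of lines and at most 2 counts in any library of the other. Scaled to library size, its summed count was 3792-fold higher in 4T1/4T1.2 cells (exact 95% interval 1297 to 18388, for counting error only), with an adjusted p of 2.06e-10 by edgeR. Cldn4 (GeneID 12740), on the same chromosome from 134945123 to 134946934, had 80 and 66 counts in 4T1.2 and 171 and 164 in 4T1. Each of 66cl4 and 67NR had 1 library with 0 counts and 1 with a single count. The same separation was seen at a lower level, with a summed count 205-fold higher in 4T1/4T1.2 cells (interval 56.5 to 1699) and an adjusted p of 8.10e-08 by edgeR.

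Cldn7 encodes a claudin found along the lateral membrane of epithelial cells as well as at the junction. It was the least abundant of the genes that were higher in 4T1/4T1.2 cells (GeneID 53624, chromosome 11, 69964779 to 69967886). Its counts were 14 and 10 in 4T1.2, 66 and 51 in 4T1, 1 and 1 in 67NR, and 1 and 2 in 66cl4. Even the lower 4T1.2 library lay above the highest library of 66cl4 and 67NR, and the summed count was 24.1-fold higher (interval 10.1 to 75.2, adjusted p of 6.70e-06 by edgeR).

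Cldn1 and Cldn6 ran the other way. Cldn1, the claudin whose loss in mice destroys the water barrier of the skin (GeneID 12737, chromosome 16, 26356645 to 26371839), had 2943 and 2690 counts in 66cl4 and 504 and 800 in 67NR. It had 1 count in each 4T1 library and none in either 4T1.2 library. At these depths Cldn1 was at the limit of detection in 4T1 and 4T1.2, and its summed count was 4066-fold higher in 66cl4/67NR cells (interval 1125 to 33578, adjusted p of 8.06e-11 by edgeR). Against 67NR alone, where the level was lower than in 66cl4, the difference from 4T1.2 was at least 501-fold, taking 3 counts as the most that a count of 0 allows.

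Cldn6, a claudin of embryonic epithelia (GeneID 54419, chromosome 17, 23679348 to 23682446), was detected in all 4 lines. It stood at 0.176 and 0.318 CPM in 4T1.2, 0.983 and 1.08 in 4T1, 3.08 and 3.96 in 67NR, and 8.42 and 8.26 in 66cl4. The lines were ordered 66cl4, 67NR, 4T1 and 4T1.2 from high to low, with no overlap between any neighbouring lines. The log2 difference of 4T1/4T1.2 from 66cl4/67NR was -3.43 (standard error 0.17, adjusted p of 3.90e-08 by edgeR), which is 10.7-fold lower.

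Occludin gives the strands their stability and takes part in their regulation. Ocln (GeneID 18260, chromosome 13, 100496504 to 100552718) stood at 16.7 and 16.7 CPM in 4T1.2, 47.8 and 51.3 in 4T1, 4.59 and 3.45 in 67NR, and 0.442 and 0.290 in 66cl4. All 4 lines were separate, in the order 4T1, 4T1.2, 67NR and 66cl4, and the step between 67NR and 66cl4 was itself over an order of magnitude. The pooled log2 difference was 4.57 (standard error 0.13, adjusted p of 6.45e-10 by edgeR). Because the pooled value averages these unequal lines, it stands for neither: 4T1 was 7.07 above 66cl4 on the log2 scale and 3.64 above 67NR.

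F11r, whose product is an adhesion molecule of the immunoglobulin family also made by leucocytes, platelets and endothelium (GeneID 16456, chromosome 1, 171437561 to 171464593), was well expressed in every line. It stood at 106 and 101 CPM in 4T1.2, 139 and 162 in 4T1, 42.5 and 46.6 in 67NR, and 42.6 and 42.8 in 66cl4. The groups did not overlap, but the difference was a log2 value of 1.52 (standard error 0.07, adjusted p of 2.59e-08 by edgeR), or 2.86-fold, far below those of Cldn3 or Tjp3.

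The scaffolds differed from one another. Tjp1 (GeneID 21872, chromosome 7, 65296165 to 65527850) encodes ZO-1, which is also found at adherens junctions and in cells without tight junctions. Its libraries read 209 and 203 CPM in 4T1.2, 287 and 222 in 4T1, 283 and 246 in 67NR, and 263 and 255 in 66cl4, so that the groups overlapped. The pooled log2 difference was -0.19 (95% interval -0.39 to 0.0029, adjusted p of 0.0672 by edgeR). This result depended on 1 library: without replicate 1 of 4T1, the highest of the 8, the log2 difference was -0.29 and the adjusted p by edgeR 0.00245. With the replicate number as a block, the adjusted p by edgeR was 0.0275. The labels do not say whether the numbers pair the libraries.

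Tjp3 (GeneID 27375, chromosome 10, 81273188 to 81291581), which encodes ZO-3, a scaffold largely restricted to epithelia, had 143 and 127 counts in 4T1.2 and 488 and 366 in 4T1. It had no count in either 66cl4 library, and 0 and 2 in 67NR. Its summed count was 479-fold higher in 4T1/4T1.2 cells (interval 132 to 3964, adjusted p of 1.94e-08 by edgeR). Per length of transcript, the line means of Tjp1 lay between 28.9 and 37.2 RPKM and those of Tjp3 between 0 and 2.62, so ZO-1 was the more abundant transcript of the pair in every line.

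**Figure D2:**
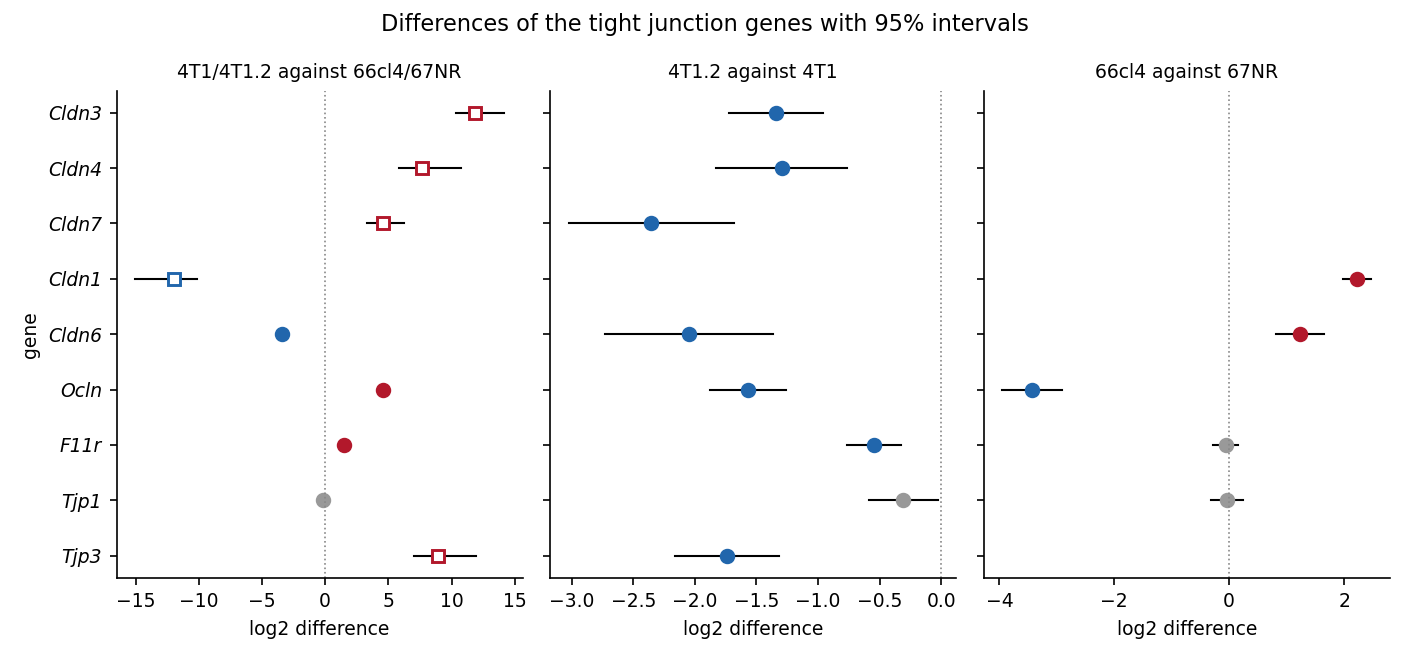
Log2 differences of the 9 genes in 3 comparisons, with 95% intervals and a separate scale in each panel. Filled circles are fitted edgeR values (red called higher, blue called lower, grey not called), and open squares are ratios of summed counts with exact intervals, used where a group had 5 counts or fewer in all. Genes with at most 3 counts in every library of both lines have no point, and 4T1.2 lay below 4T1 for all 7 genes called.

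Between the closely related 4T1.2 and 4T1, 7 of the 9 genes were lower in 4T1.2 and none was higher, against 9.90% of all genes called lower and 9.37% called higher. Cldn7 fell by 2.35, Cldn6 by 2.05, Tjp3 by 1.74, Ocln by 1.57, Cldn3 by 1.34, Cldn4 by 1.29 and F11r by 0.54 on the log2 scale. Their adjusted p-values by edgeR lay between 7.89e-05 for Ocln and 0.00464 for Cldn4, and in each case both 4T1.2 libraries lay under both 4T1 libraries. The claudins and Tjp3 that set 4T1 and 4T1.2 apart from the other lines were thus 2.45-fold to 5.11-fold less abundant in 4T1.2 than in 4T1. Without replicate 2 of 4T1.2, the value of Cldn4 was -1.17 and its adjusted p by edgeR 0.0516. Tjp1 had a log2 difference of -0.31 (95% interval -0.58 to -0.028, adjusted p of 0.122 by edgeR), which became -0.48 with an adjusted p of 0.0108 by edgeR without replicate 2 of 4T1. Cldn1, with 2 counts over these 4 libraries, allowed no comparison.

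Between 66cl4 and 67NR, Cldn1 was 4.68-fold higher in 66cl4 (log2 difference 2.23, standard error 0.11, adjusted p of 1.49e-06 by edgeR) and Cldn6 was 2.35-fold higher (1.23, standard error 0.19, adjusted p of 0.000538 by edgeR). Ocln was 10.8-fold lower in 66cl4 (-3.43, standard error 0.23, adjusted p of 3.93e-06 by edgeR). Over all genes, 22.3% were called higher and 22.4% lower in this comparison. F11r (-0.06, 95% interval -0.28 to 0.16) and Tjp1 (-0.03, interval -0.31 to 0.25) were not called. The remaining 4 genes, Cldn3, Cldn4, Cldn7 and Tjp3, had at most 2 counts in any library of either line, and no difference between the lines was detectable at this depth.

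The single lines were also compared across the pairs, in comparisons that share libraries with each other and with the pooled one. All 9 genes were called between 4T1.2 and 67NR, where 67.8% of all genes were, and between 4T1.2 and 66cl4, where 68.8% were. Between 4T1 and 67NR (68.2% of all genes called) and between 4T1 and 66cl4 (70.0%), 8 of the 9 were called. In each of these 4 comparisons the same 6 genes were higher and Cldn1 and Cldn6 were lower in the 4T1 or 4T1.2 line. Tjp1 made the difference. It was lower in 4T1.2 than in 67NR by 0.36 (adjusted p of 0.0257 by edgeR) and than in 66cl4 by 0.33 (adjusted p of 0.0366 by edgeR), and it lay within 0.06 of both lines in 4T1 (adjusted p of 0.706 and 0.865 by edgeR). Both calls were lost when either 4T1.2 library was left out, the one against 67NR also without replicate 1 of 67NR (adjusted p of 0.187 by edgeR), and the one against 66cl4 also without either 66cl4 library, with adjusted p-values by edgeR between 0.0697 and 0.143 in the other cases.

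Seen as a repertoire, the lines used different claudins. Levels per length (RPKM, CPM divided by the counted length in kilobases) were summed over the 34 claudin genes of the matrix, and the sum was 91.6 ± 15.3 (SD, n = 2) in 4T1, 44.8 ± 1.16 in 4T1.2, 59.9 ± 0.644 in 66cl4 and 45.1 ± 0.520 in 67NR. Cldn3 made up 62.0% ± 1.37 of the sum in 4T1.2 and 76.5% ± 4.13 in 4T1, and Cldn4 made up 1.58% and 1.91%. In 66cl4, Cldn1 held 32.2% ± 2.16 and Cldn6 9.25% ± 0.225, and in 67NR they held 9.13% ± 0.276 and 5.19% ± 0.966. The share that these 5 claudins left was mostly that of Cldn12, which lacks the terminal motif that binds ZO proteins, at 16.7% in 4T1, 32.4% in 4T1.2, 41.0% in 66cl4 and 58.7% in 67NR. Cldn9, a close relative of Cldn6, added 11.8% in 66cl4 and 24.2% in 67NR, and 2.10% or less in 4T1 and 4T1.2. The summed claudin level of 4T1.2 and that of 67NR were thus near each other while their main claudins differed.

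**Figure D3:**
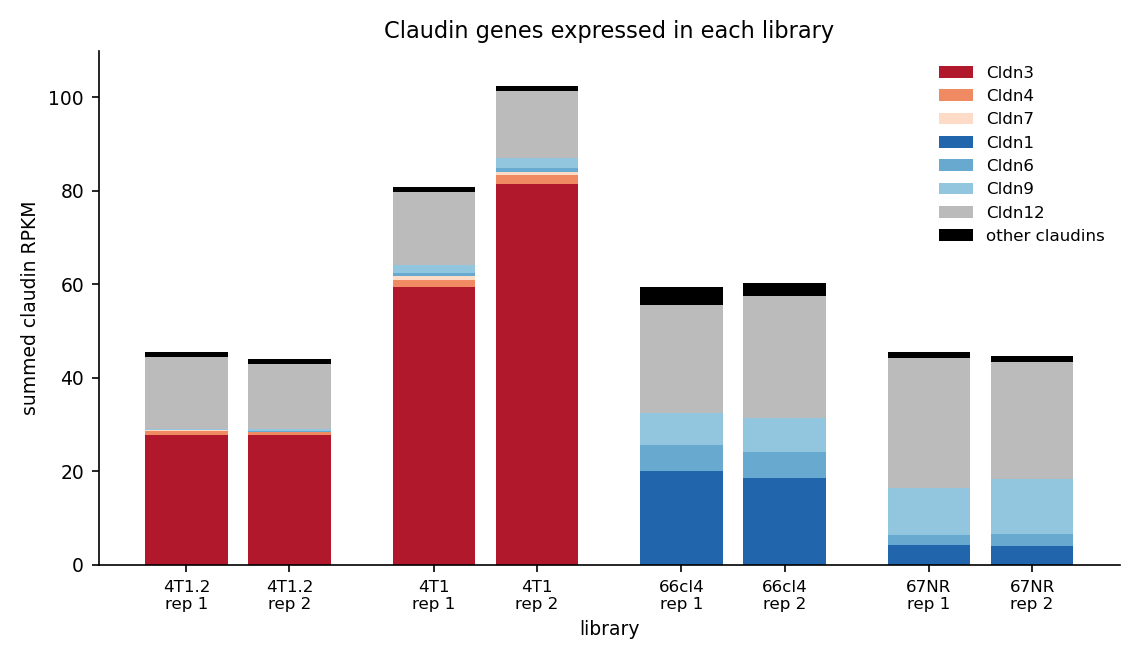
Summed RPKM of the 34 claudin genes in each library, stacked by gene. Bars start at 0, rep is the replicate, and the black block joins the claudins not named. Cldn3 (red) fills most of the 4T1.2 and 4T1 bars, Cldn1, Cldn6 and Cldn9 (blue) appear in 66cl4 and 67NR, and Cldn12 (grey) is present in all.

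The rest of the complex was examined in lists of known tight junction genes, of which 35 of the 42 tested were called in the pooled comparison, 15 higher and 20 lower. Over all genes, 10676 of the 13913 tested were called, 38.1% higher and 38.6% lower, so that calls in these lists were common as elsewhere. Among 6 other claudins tested, 2 were higher and 3 lower. Cldn23, with 14 to 50 counts in 4T1 and 4T1.2 libraries and none elsewhere, was at least 34.1-fold higher, whereas Cldn9 fell by 3.43, Cldn2 by 1.80 and Cldn12 by 0.79 on the log2 scale. The 13 other claudins of the list were not tested and had at most 10 counts in any library. Among 9 other transmembrane proteins, 4 were higher and 3 lower. Marveld2, which encodes tricellulin of the contacts where 3 cells meet, had a summed count 546-fold higher in 4T1/4T1.2 cells (interval 151 to 4510). Lsr, whose product recruits tricellulin to these contacts, was higher by 7.54 (standard error 0.16) and Crb3, an apical polarity protein, by at least 39.5-fold. Jam3 was higher by 2.01, and Ildr2, of the same family as Lsr, had 7 counts in all in 4T1 and 4T1.2, against 2975 in 66cl4 and 52 in 67NR.

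Among the 27 other plaque and polarity genes, 9 were higher and 14 lower, beside 38.1% and 38.6% of all genes. Their median log2 difference was -0.38. Those higher included the polarity genes Pard6g (5.43) and Prkcz (5.13), and Amotl1 (1.69), an angiomotin family gene. Those lower included Amotl2 (-1.65), Amot (-1.45), Magi2 (-1.44) and Tjap1 (-1.22). The standard errors of these 7 values lay between 0.07 and 0.33.

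**Figure D4:**
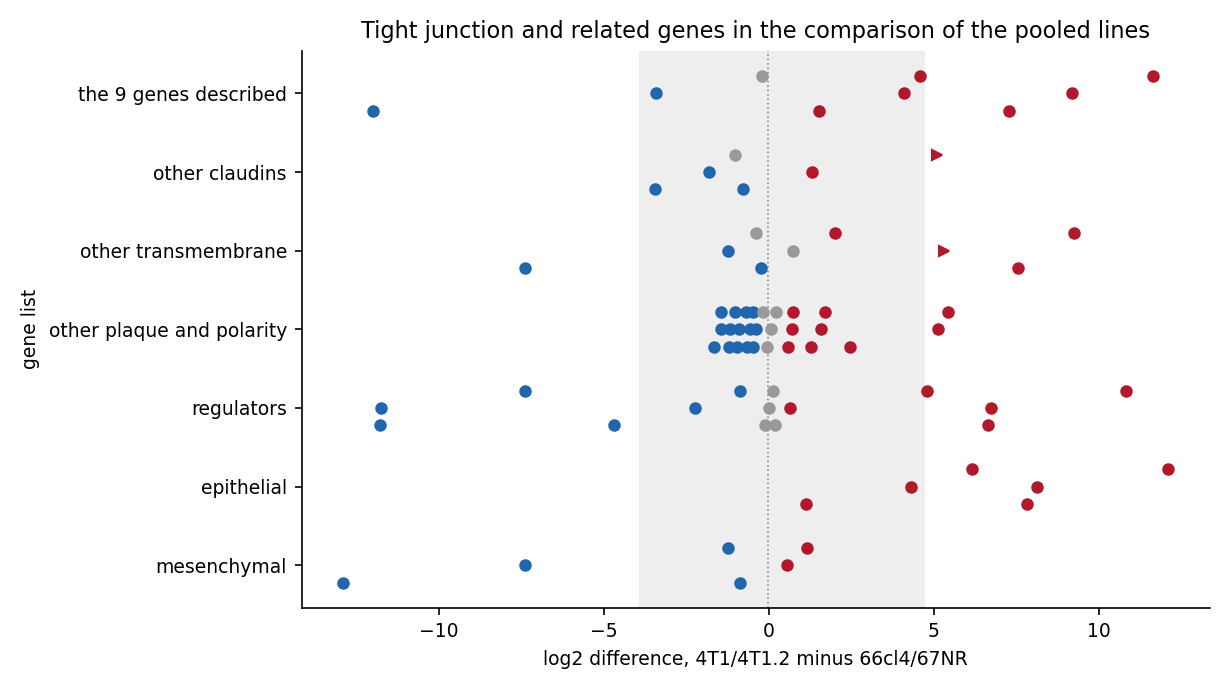
Log2 difference of 4T1/4T1.2 from 66cl4/67NR for each tested gene of 7 lists. Red points were called higher, blue lower and grey not called, triangles mark lower bounds for genes without a count in 66cl4 and 67NR, the small vertical offsets only keep points apart, and the grey band runs from the 5th to the 95th percentile of all genes tested (-3.91 to 4.72). Of the 9 genes described, 4 lie outside the band (Cldn1, Cldn3, Cldn4 and Tjp3).

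Other epithelial genes moved with these results. All 6 epithelial markers examined were higher in 4T1/4T1.2 cells, where 38.1% of all genes were called higher and 38.6% lower. Among them were Cdh1, the E-cadherin of adherens junctions, with a log2 difference of 7.82, and Krt18, a keratin of simple epithelia, with 6.17. The reference lines were unequal in Krt18, which stood at 114 CPM (SD 1.58, n = 2) in 66cl4 and 0.977 CPM (SD 0.223, n = 2) in 67NR. The summed level of the 6 epithelial markers was 2633 to 3439 CPM in 4T1, 1840 to 2155 in 4T1.2, 720 to 723 in 66cl4 and 465 to 530 in 67NR. Krt8 alone supplied most of this sum in 66cl4 (mean 605 CPM) and 67NR (mean 496 CPM). Cdh1 had means of 0.0997 and 0.0759 CPM there, and Epcam of 0 and 0.0137. The sum in these lines therefore follows Krt8 and does not stand for each of the 6 markers. Between 4T1.2 and 4T1, 5 of the 6 were lower in 4T1.2, Cdh1 by 1.76 and Epcam by 1.61. Of 6 mesenchymal markers, 4 were lower in 4T1/4T1.2 cells, including Cdh2 (N-cadherin, 2 counts in all against 16556) and Zeb1, while Vim was higher by 1.16 and Sparc by 0.55. The summed mesenchymal level ran from 5920 to 8020 CPM in 4T1.2 and 4T1 libraries and from 3467 to 5879 in the others. Vim alone supplied most of this sum in every line, with a mean of 5829 CPM for 4T1 against 1948 for 67NR. The sum therefore follows Vim and does not stand for the 4 markers that were lower. Of these, Fn1 had a mean of 564 CPM for 4T1 against 979 for 67NR. Markers of endothelium and leucocytes summed to at most 3.80 and 0.496 CPM in any library. The endothelial sum was highest in 4T1, where Cdh5 alone had a mean of 2.64 CPM. No list of platelet markers was examined, and whether other cell types added to F11r was not tested.

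Of 21 regulators known for control of epithelial genes, which are transcription factors and the splicing factors Esrp1 and Esrp2, 15 were tested. The other 6, among them Esrp1, Ehf, Ovol2 and Grhl3, had at most 3 counts in any library and were not tested. Of the 15 tested, 5 were called higher and 6 lower, beside 38.1% and 38.6% of all genes. The repressors were not all of the same direction. Snai1 (Snail) had 562 to 1250 counts in 4T1 and 4T1.2 libraries and at most 2 elsewhere, while Snai2 (Slug) had at most 3 counts in 4T1 and 4T1.2 libraries and 2689 to 4808 in 66cl4 and 67NR. Zeb1 fell by 7.37 (standard error 0.11) and Zeb2 had a log2 difference of -0.11 that was not called. Twist1 and Twist2, of the same list, were lower in 4T1/4T1.2 cells. Twist2 had at most 2 counts in any 4T1 or 4T1.2 library and at least 1002 in each of the others. Line means of Twist1 were at most 101 CPM for 4T1 and 4T1.2 and at least 147 for the other lines. Among the factors known to favour the epithelial state, Esrp2, which acts on RNA splicing, was higher. It had 138 to 208 counts in 4T1 and 4T1.2 libraries and at most 2 in each of the others. The transcription factors Tfap2c and Elf3 were higher by 6.64 and 4.81, and Grhl1 was lower by 4.69. Grhl2 (0.12, 95% interval -0.57 to 0.82) was not called, but its reference lines were unequal. Its line means were 0.652 CPM for 67NR, 0.340 for 4T1, 0.203 for 4T1.2 and 0.0891 for 66cl4. Klf4, another gene of this list, was lower, with line means of at most 11.1 CPM for 4T1 and 4T1.2 and at least 35.9 for the other lines. The part of any of these genes in the levels of the tight junction genes was not tested.

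The proteins of the Snai and Zeb families bind E-box elements with the letters CAGGTG, so promoter windows of the 9 genes were searched for them on both strands. The windows were taken from RefSeq on GRCm38.p6, each 300 bases long, with 250 bases before the annotated start and 50 after it. All 9 genes had at least 1 window, and there were 12 windows in all. CAGGTG or its reverse complement was found in windows of 7 of the 9 genes, against 22.6% of the 27025 genes in the RefSeq set. Cldn1 and Tjp1 had none. Windows of 7 genes are shown, 5′ to 3′ on the strand of the gene, to set the promoters of genes higher in 4T1/4T1.2 cells beside those of Cldn1, Cldn6 and Tjp1. Capitals mark CAGGTG or CACCTG, and the start lies at base 251.
Cldn3, chr5:134985964-134986263, plus strand: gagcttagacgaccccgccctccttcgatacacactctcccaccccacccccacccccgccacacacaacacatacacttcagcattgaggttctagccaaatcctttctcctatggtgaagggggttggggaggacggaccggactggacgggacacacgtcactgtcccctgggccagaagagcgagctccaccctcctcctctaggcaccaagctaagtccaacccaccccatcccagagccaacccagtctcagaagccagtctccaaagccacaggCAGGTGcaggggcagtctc
Cldn4, chr5:134946885-134947184, minus strand: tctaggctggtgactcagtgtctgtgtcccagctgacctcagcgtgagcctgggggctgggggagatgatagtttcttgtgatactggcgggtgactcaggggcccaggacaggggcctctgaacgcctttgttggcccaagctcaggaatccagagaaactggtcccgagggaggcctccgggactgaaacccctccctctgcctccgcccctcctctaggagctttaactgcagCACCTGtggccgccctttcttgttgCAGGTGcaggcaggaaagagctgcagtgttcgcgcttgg
Cldn7, chr11:69965171-69965470, plus strand: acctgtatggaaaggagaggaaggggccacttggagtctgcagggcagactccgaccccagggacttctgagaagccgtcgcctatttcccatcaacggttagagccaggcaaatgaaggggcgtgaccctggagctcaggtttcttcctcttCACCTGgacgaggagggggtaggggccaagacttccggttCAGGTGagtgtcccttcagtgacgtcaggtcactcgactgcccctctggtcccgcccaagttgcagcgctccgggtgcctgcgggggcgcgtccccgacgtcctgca
Ocln, chr13:100552449-100552748, minus strand: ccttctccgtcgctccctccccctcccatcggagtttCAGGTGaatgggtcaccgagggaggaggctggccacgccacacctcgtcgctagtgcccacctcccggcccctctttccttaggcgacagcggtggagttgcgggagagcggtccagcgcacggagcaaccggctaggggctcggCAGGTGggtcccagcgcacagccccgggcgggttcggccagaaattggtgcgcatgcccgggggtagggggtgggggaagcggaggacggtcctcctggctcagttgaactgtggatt
Cldn1, chr16:26371790-26372089, minus strand: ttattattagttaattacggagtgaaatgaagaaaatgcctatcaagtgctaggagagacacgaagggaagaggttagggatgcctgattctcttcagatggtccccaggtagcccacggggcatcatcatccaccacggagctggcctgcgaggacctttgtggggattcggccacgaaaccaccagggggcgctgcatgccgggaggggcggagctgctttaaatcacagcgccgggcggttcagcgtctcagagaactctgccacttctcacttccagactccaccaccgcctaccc
Cldn6, chr17:23679115-23679414, plus strand: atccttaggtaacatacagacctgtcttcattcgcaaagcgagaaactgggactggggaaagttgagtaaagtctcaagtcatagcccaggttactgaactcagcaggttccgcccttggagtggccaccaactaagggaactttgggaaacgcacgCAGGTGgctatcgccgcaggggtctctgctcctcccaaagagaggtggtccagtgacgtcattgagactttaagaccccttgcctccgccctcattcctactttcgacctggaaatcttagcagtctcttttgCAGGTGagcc
Tjp1, chr7:65371195-65371494, minus strand: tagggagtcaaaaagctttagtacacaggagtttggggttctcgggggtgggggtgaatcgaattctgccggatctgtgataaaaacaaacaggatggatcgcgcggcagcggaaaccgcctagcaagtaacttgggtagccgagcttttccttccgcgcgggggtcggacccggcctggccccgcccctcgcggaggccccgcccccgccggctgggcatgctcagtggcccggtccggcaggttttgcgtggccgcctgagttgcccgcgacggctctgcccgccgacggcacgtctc

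In the windows shown, Cldn4, Cldn6, Cldn7 and Ocln held 2 matches each and Cldn3 held 1. The matches of Cldn4 began 14 bases before and 11 bases after the start, and those of Cldn7 began 97 and 57 bases before it. F11r and both windows of Tjp3 held 1 match each, and a second window of Cldn7 held none. The letters were thus found in windows of all 6 genes called higher in 4T1/4T1.2 cells and of 1 of the 2 called lower (Cldn6), and their relation to the differences was not tested. The wider E-box CANNTG, which includes CAGGTG, was found in 8 of the 9 genes and in 20265 of the 27025. The grainyhead-like element AACNGGTT, searched in the same way, was found in none of the 9 and in 2.35% of all genes. A match of letters is a description, not a site shown to be bound.

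The surroundings of the genes were then examined for tested genes that start within 100 kb, a start being the outermost 5′ end that RefSeq gives for a gene on its strand. Cldn3 and Cldn4 start 39.3 kb apart, and both were higher in 4T1/4T1.2 cells. Of the 8 tested neighbours of Cldn3, 6 were higher and 1 lower, and Stx1a, which encodes the synaptic syntaxin 1A, was higher by 5.63. Cldn6 starts 4.68 kb from Cldn9, and these sister claudins were lower by 3.43 each. The other 9 neighbours of Cldn6 were of both directions (4 higher, 2 lower and 3 not called), and Zfp13, which starts 79593 bases away, was higher by 4.84. Ocln starts 64.3 kb from Marveld2, a gene of the same protein family, and both were higher, while of the other neighbours Naip1 fell by 4.26 and Gtf2h2 had a log2 difference of -0.04. For Cldn7, 10 of 16 neighbours were higher and 3 lower, for Tjp3 8 of 13 and 2, and for F11r 5 of 8 and 2. Over all genes tested, 38.1% were called higher and 38.6% lower. The largest value beside Cldn7 was 8.57, of Acap1, but most neighbours differed little. The median log2 difference of the neighbours was 0.61 for Cldn3, 0.49 for Cldn7, 0.36 for Tjp3, 0.38 for F11r, -0.086 for Cldn6 and -0.043 for Ocln. For Cldn4 it was 0.89. Cldn3 and Cldn4 were each counted among the neighbours of the other. No tested gene starts within 100 kb of the start of Cldn1 or of the outermost 5′ end of Tjp1 (65527850). The promoter window shown for Tjp1 lies elsewhere (65371195 to 65371494), and genes near that window were not counted.

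**Figure D5:**
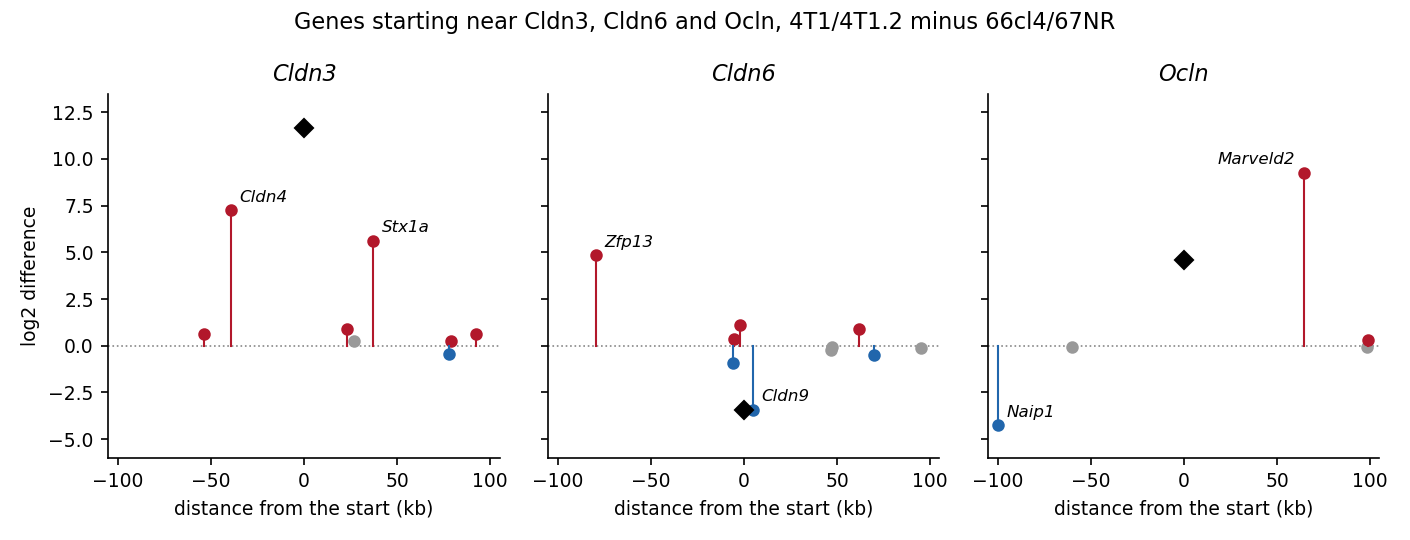
Log2 difference of 4T1/4T1.2 from 66cl4/67NR for tested genes starting within 100 kb of Cldn3, Cldn6 and Ocln, by distance from that gene's start. Black diamonds are Cldn3, Cldn6 and Ocln, red points were called higher, blue lower and grey not called. Cldn4 and Stx1a beside Cldn3 and Marveld2 beside Ocln stand at 5.63 or more, Zfp13 beside Cldn6 stands at 4.84, and Cldn9 lies at the same value as Cldn6.

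Finally, the gene with the most similar profile was sought for each of the 9, among tested genes outside these 9 only. It was the gene with the smallest root mean square difference of centred log2 CPM over the 8 libraries. How near the 9 genes were to one another was not examined. These values are descriptions over 8 libraries of 4 lines. For Tjp3 it was Marveld2, another tight junction gene, at a difference of 0.16. For Ocln it was Tbc1d30 (0.27), for Cldn3 Car12, a carbonic anhydrase (0.27), for Cldn4 Cyp4v3 (0.23) and for Cldn7 Lratd2 (0.29). Cldn1 was nearest to Hoxb9 (0.29), Cldn6 to Tpm2, a tropomyosin (0.22), F11r to Btbd3 (0.10) and Tjp1 to Picalm, an adaptor of clathrin coats (0.05).

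Sequence shared with other genes was limited. Of all stretches of 75 bases in the transcripts of a gene, none was shared with another gene for 8 of the 9, and for F11r 0.188% were. Annotated exons of other genes covered 3.18% of the exon bases of Cldn3 (Wbscr25, on the opposite strand, at most 1 count in any library) and 1.08% of those of Tjp3 (Apba3, on the opposite strand). For Tjp3, which had at most 2 counts in 66cl4 and 67NR while Apba3 was expressed in all lines, the overlap held at most those 2 counts there.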

How the data were processed

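RNA-seq of cultured 4T1.2, 4T1, 66cl4 and 67NR cells was analysed, with 2 biological replicates each. Libraries were prepared from total RNA with a TruSeq kit that does not mark strand. The authors used Rsubread for alignment (mm10) and featureCounts for counting on Entrez genes, and deposited raw counts per gene together with a gene length. Whether counting used strand is not given in the sources used here. The endothelial data of the study were not analysed here.

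Identifiers were matched to a RefSeq table of GRCm38.p6 (25275 of 27179, 93.0%). Strand was read from GENCODE vM21 or the RefSeq promoter table (13837 of the 13913 genes tested), and genes without one were left out as neighbours. After filterByExpr (15269 genes), unmatched, predicted and ribosomal genes were removed (5.38% to 7.98% of counts), leaving 13913. Lines were compared in R 4.3.3 with edgeR 4.0.16 (quasi-likelihood F-test, legacy fit) and limma 3.58.1, using TMM scaling, a mean for each line, a prior count of 0.125 and Benjamini-Hochberg adjustment with a threshold of 0.05. The script was tested on simulated data. Standard errors were derived from the F statistic and are approximate. CPM used TMM effective library sizes and RPKM the deposited lengths. Where a group had 5 counts or fewer in all, the counts themselves or ratios of summed counts per effective library size with exact intervals are given. For bounds, a group without counts was set to 3 counts in all. Intervals and bounds of counts cover counting error only. The replicate numbers were not taken to pair the libraries, since deviations of same-numbered libraries correlated at -0.12 to 0.27 over the pairs of lines. Replicates differed by more than sampling noise in each line.

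The genes and lists described were chosen with earlier results of these data known. From each list, up to 4 genes per direction were named, those with the largest change among called genes without overlap, and epithelial, mesenchymal and regulator genes freely. A gene that this rule names is not reported here. Alternatives were DESeq2 (1.42.0) size factors and Wald test, other filters, a test for changes beyond a log2 value of 1, a replicate block, fits of 2 lines and leaving out each library. Sequences were read with Biopython 1.88 in Python 3.11.15, and figures drawn with matplotlib 3.10.9.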

Additional observations from a re-analysis of the deposited data

How the results depend on the processing

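With 2 replicates per line, small differences such as those of Tjp1 were not resolved. Without any 1 library, the genes called among the 9 numbered 8 to 9 in the pooled comparison, 6 to 8 between 4T1.2 and 4T1, 3 between 66cl4 and 67NR, 8 to 9 for 4T1.2 against 67NR and against 66cl4, and 8 for 4T1 against either. Requiring 10 counts or more in each library left 4 of the 9 genes to test (Cldn6, Ocln, F11r and Tjp1), of which 3 were called in the pooled comparison, 3 between 4T1.2 and 4T1, 4 for 4T1.2 against 67NR and against 66cl4, and 3 for 4T1 against either. Testing for changes beyond a log2 value of 1 called 4 genes between 4T1.2 and 4T1 (Cldn3, Cldn4 and F11r lost their call), 20 other tight junction genes and 3620 genes in all (10676 in the main test). In that test Cldn6 lost its call between 66cl4 and 67NR (adjusted p of 0.349 by edgeR), so that 2 genes were called there instead of 3, and Tjp1 lost both calls of 4T1.2 (8 instead of 9 genes). DESeq2's size factors and Wald test, the fit of 2 lines alone and the absence of a filter on low counts changed no call among the 9 genes.

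With the replicate number as a block, Tjp1 passed the threshold in the pooled comparison (log2 difference -0.20), so that 9 genes were called, and no other call among the 9 genes changed. The numbers of called genes were 35 other tight junction genes and 10788 genes in all.

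The values that changed sign were near 0 and not called under either setting. The log2 difference of Tjp1 between 4T1 and 66cl4 became 0.00031 if no gene was removed by annotation, and leaving out single libraries it ran from -0.23 to 0.16 (positive without the second 4T1 library). Between 4T1 and 67NR it ran from -0.26 to 0.11 (positive at 0.047 without the first 67NR library and at 0.11 without the second 4T1 library). Between 66cl4 and 67NR it ran from -0.13 to 0.073 (positive without the first 67NR library), and that of F11r from -0.13 to 0.0087 (positive without the second 67NR library). Without removal by annotation, Tjp1 lost its call between 4T1.2 and 66cl4 (adjusted p of 0.0672 by edgeR). Apart from the altered sets of genes and libraries themselves, the cause was not tested.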
